A study of Drosophila melanogaster with 50 samples.

Results

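Hypergravity inside a magnetic levitator was compared with normal gravity inside the same magnet, in adult females of Drosophila melanogaster. A levitator places flies in a strong field gradient, so that the position in the bore sets the effective gravity. At the 2g* position the magnetic force adds to weight, and at the 1g* position the flies stay in the field at normal weight. Flies of 2 days entered the facilities for 3 to 5 days. The comparison used 6 of the 50 arrays of the series, chosen by their titles, with 3 arrays at 2g* and 3 at 1g*, and covered the 18769 probe sets that are not controls. Both groups were females of the wild-type strain Oregon R, labelled as imagoes of 5 days kept at 14C in the field, so strain, age and temperature were shared. The positions lie at different points of the field gradient, so effective gravity and the local field cannot be told apart in this comparison. Other females entered the same fit: 3 arrays at 0g* in the field, and, at 1g away from the field, 2 arrays at 14C and 3 at 24C. A separate exposure of Oregon R females of 5 days at 22C used a centrifuge, with 4 arrays at 2g, 2 of a rotational control at 1g, named 1g-rot, and 2 at 1g beside the machine. Replicates are titled biological, no label says how many flies went into a sample, and every p value measures the spread between these samples only.

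RNA of whole flies mixes all tissues, and in females the ovary makes up much of it. In the ovary, follicle cells around the oocyte build the eggshell from inside to outside, with the vitelline membrane proteins first and the chorion proteins last, over a short span at the end of egg maturation. The X-linked chorion genes Cp36 and Cp38 are switched on before the late chorion genes of arm 3L such as Cp15 and Cp18, and yolk proteins come from the fat body and the follicle cells. Chorion transcripts therefore tell whether a sample held egg chambers in the last stages. From RNA of bulk samples, fewer cells of a type and less RNA per cell cannot be told apart.

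The state of egg maturation differed among the 1g* arrays. The 7 chorion genes measured, of 9 listed, had array medians of 12.01, 12.89 and 12.35 at 2g*, against 6.49, 12.70 and 6.07 at 1g*, all as log2 levels. The 3 arrays at 2g* and 1g* replicate 2 were thus chorion-high, and 1g* replicates 1 and 3 were chorion-low, so the groups overlapped. At 0g* the medians were 7.95, 12.73 and 12.89, and outside at 14C they were 12.41 and 12.94, while outside at 24C they were 12.54, 6.63 and 13.04. A chorion-low array thus also stood at 0g* and outside the field. The array with 12.54 is titled 24C but carries 14C among its characteristics. The 16 vitelline membrane and early eggshell genes measured, of 19 listed, had medians of 8.52, 9.02 and 9.68 at 2g*, against 7.52, 8.95 and 8.28 at 1g*. The 7 yolk genes had medians of 12.92, 12.99 and 12.96 at 2g*, against 13.10, 12.87 and 13.22 at 1g*, so the yolk transcripts of females were bright on all 6 arrays.

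Male transcripts stood on 1 of the 6 arrays. Genes of the accessory gland and its seminal proteins, which males make for the ejaculate, were 22 in number and had array medians of 4.19, 4.00 and 4.00 at 2g*, against 8.64, 3.87 and 4.08 at 1g*. On 1g* replicate 1 all 22 of these genes lay above the background of plant control probe sets, against 4, 9 and 10 of them on the 2g* arrays and 8 and 10 on the other 1g* arrays. The 33 testis and sperm genes had medians of 4.27, 4.18 and 4.06 at 2g*, against 5.69, 4.11 and 4.08 at 1g*. RNA quality differed too: the 3' minus 5' difference of the eIF-4a control probe sets was 1.63, 1.39 and 1.88 at 2g*, against 1.14, 1.30 and 1.21 at 1g*, without overlap (exact permutation test, two-sided, p = 0.1, the smallest that 3 against 3 arrays allow). For GAPDH it was 1.80, 1.73 and 1.85 at 2g*, against 1.84, 1.81 and 2.01 at 1g*, with overlap (exact permutation test, two-sided, p = 0.4). The part of these states in the differences was not tested beyond leaving out arrays.

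**Figure D1:**
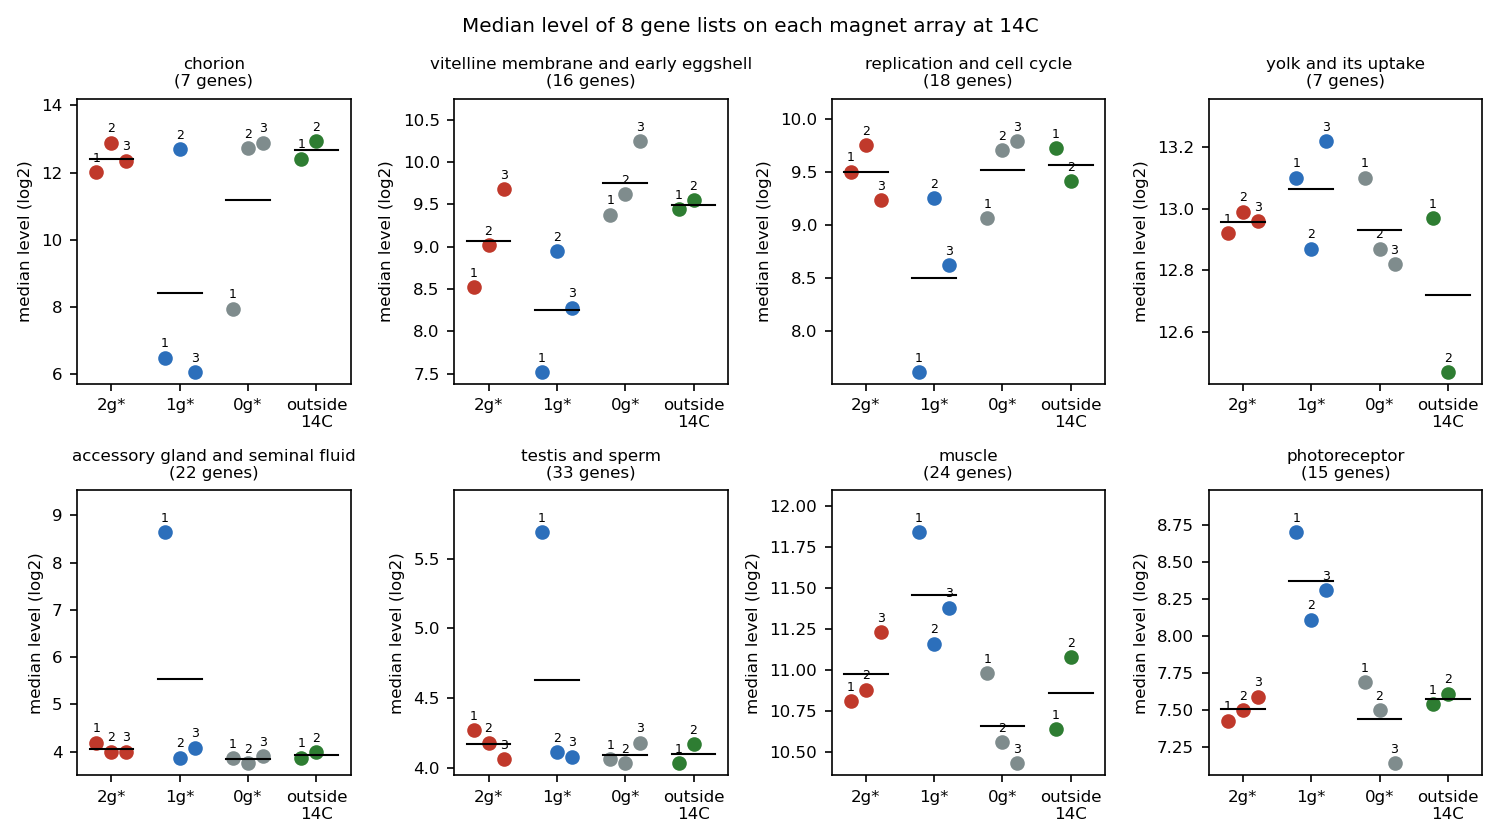
Median log2 level (vertical axis) of 8 gene lists on each magnet array at 14C, with 1 point per array, its replicate number above it and a line at the mean of the array medians. Chorion medians were 12.01 to 12.89 at 2g* and split into 12.70 and 6.07 to 6.49 at 1g*, male transcripts stood on 1g* replicate 1, and the photoreceptor medians of 2g* and 1g* did not overlap.

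No probe set passed the test between 2g* and 1g*. Of 18769 probe sets 0 had an adjusted p under 0.05 (limma, Benjamini-Hochberg), which is 0% of those tested, and the smallest adjusted p was 0.32. An unadjusted p under 0.05 was found for 2684 probe sets, where 938 were due by chance. Of these, 1370 (7.3%) had higher values at 2g* and 1314 (7%) lower values. All 3 arrays at 2g* lay above all 3 at 1g* in 1127 probe sets (6%) and below them in 1739 (9.27%). The median difference over all probe sets was 0.00. Over the 11982 genes, each read from its brightest probe set, 9.24% had higher and 8.51% lower values at that unadjusted p, and 6.71% were higher and 10.8% lower without overlap. Counts of gene lists are read beside these shares.

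The count rested on which 1g* arrays entered. Leaving out 1g* replicate 1, the array with male transcripts, left 863 probe sets at that unadjusted p. Leaving out 2g* replicate 2 gave 1695, and leaving out the chorion-high 1g* replicate 2 gave 4385. Against 1g* replicate 2 alone, taken to vary like the other groups, 341 were left. Of the 2684 probe sets, 1g* replicate 2 was the 1g* array nearest to the 2g* mean in 2187 (81.5%), replicate 3 in 376 (14%) and replicate 1 in 121 (4.51%). The same share over all probe sets was not worked out. Over all of them, replicate 2 also correlated best with the 2g* arrays, at 0.9896 to 0.9926. Replicate 3 had 0.98 to 0.9825 and replicate 1 had 0.949 to 0.9547.

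Among the 11 arrays of females at 14C, probe sets in which all arrays of a position stood apart from the others were counted. All 3 arrays at 2g* lay above the 8 other arrays at 14C in 61 probe sets (0.325%) and below them in 51 (0.272%). All 3 arrays at 1g* lay above the other 8 in 654 (3.48%) and below them in 332 (1.77%). At 0g* these counts were 83 (0.442%) and 148 (0.789%). The shares at 2g* were thus the smallest of the 3 positions in both directions. The share due by chance was not worked out, so these counts are descriptions only. In the same fit, 700 probe sets had an unadjusted p under 0.05 between 2g* and 0g*, and 802 between 2g* and outside at 14C, both fewer than the 938 due by chance, and 0 passed in either comparison (limma). These comparisons share arrays, and their values are given side by side only.

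Chorion transcripts had the largest median difference of the 35 lists, with all 7 genes higher at 2g* and none past the test. Cp18, a late chorion gene of arm 3L, had levels of 11.55, 12.63 and 12.32 at 2g*, against 5.19, 11.42 and 5.73 at 1g*. It was the only one of the 7 whose groups did not overlap, with a difference of 4.72 (SE 2.05, n = 3 and 3, adjusted p = 0.33). Its neighbour Cp19 had 12.55, 12.89 and 13.19 at 2g*, against 6.49, 12.73 and 6.12 at 1g* (difference 4.43, SE 1.96), and Cp16 had 11.41, 12.20 and 12.21 at 2g*, against 5.58, 11.78 and 6.07 at 1g* (4.13, SE 2.11). On both genes 1g* replicate 2 lay among the 2g* arrays.

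Cp15 and the early chorion genes did not split the chorion-low arrays in the same way. Cp36 had levels of 12.01, 12.90 and 12.35 at 2g*, against 8.20, 12.94 and 4.76 at 1g* (difference 3.79, SE 1.62), and Cp38 had 12.38, 13.50 and 12.92 at 2g*, against 7.95, 13.30 and 6.67 at 1g* (3.63, SE 1.56). Cp15 had 12.43, 13.64 and 13.30 at 2g*, against 4.49, 12.70 and 11.38 at 1g* (3.60, SE 2.38). On 1g* replicate 3 Cp15 was thus near the chorion-high arrays while Cp36 was at its lowest, but the other late genes Cp18, Cp19 and Cp16 were low there, with 5.73, 6.12 and 6.07. On 1g* replicate 1 Cp15 was at its lowest. The chorion-low array at 0g* had the other pattern, with 11.68 for Cp36, 11.77 for Cp38 and 6.20 for Cp15. Cp7Fc, a chorion gene of the X cluster, had 8.82, 9.83 and 9.79 at 2g*, against 7.89, 10.19 and 4.81 at 1g* (1.85, SE 0.99).

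Of the 7 chorion genes, 4 had an unadjusted p under 0.05, all higher at 2g*, and the list had a median difference of 3.79 beside -0.01 over the 11982 genes tested. Without 1g* replicate 2 the median was 5.94, and against that array alone it was 0.15, with Cp36 at -0.52, Cp38 at -0.37 and Cp7Fc at -0.71. That array was set apart by its high chorion level, so for this list both shifts followed from the choice and test nothing. Between 2g* and outside at 14C the chorion median was -0.13.

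**Figure D2:**
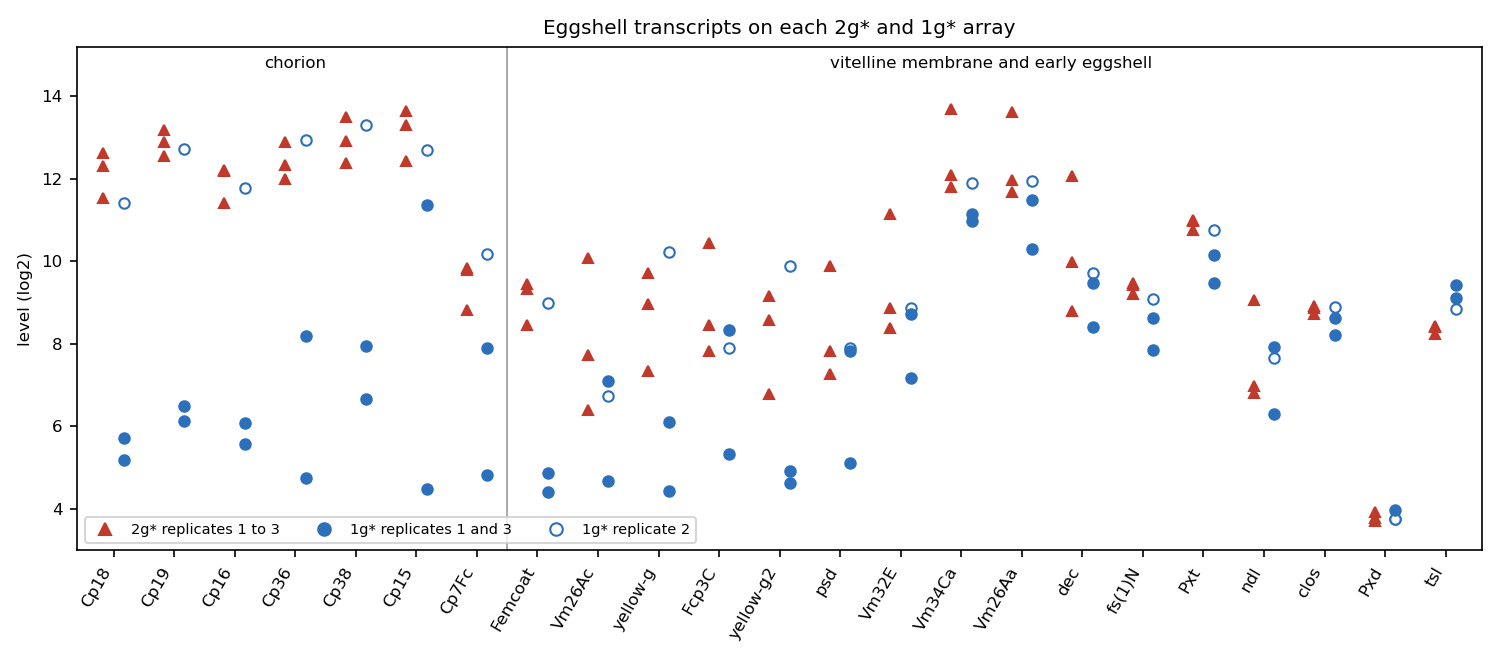
Log2 levels (vertical axis) of the 7 chorion and 16 vitelline membrane and early eggshell genes (horizontal axis) on the 3 arrays at 2g* (triangles) and the 3 at 1g* (circles, open for replicate 2). For the chorion genes 1g* replicate 2 lay near the 2g* triangles and replicates 1 and 3 lay below, apart from Cp15 at 11.38 on replicate 3.

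Vitelline membrane transcripts, which come before the chorion, had smaller differences with another pattern. Vm34Ca had levels of 11.81, 12.10 and 13.70 at 2g*, against 10.98, 11.90 and 11.16 at 1g* (difference 1.19, SE 0.38, adjusted p = 0.32). Vm26Aa had 11.98, 11.68 and 13.63 at 2g*, against 10.29, 11.94 and 11.48 at 1g* (1.19, SE 0.45), and Vm32E had 8.38, 8.88 and 11.16 at 2g*, against 7.17, 8.87 and 8.72 at 1g* (1.22, SE 0.59). In each, 2g* replicate 3 stood above the other arrays of both groups, and 2g* replicates 1 and 2 stood near 1g* replicate 2.

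The same array was highest for Vm26Ac with 10.09 (difference 1.91, SE 0.75), the follicle cell gene Fcp3C with 10.44 (1.72, SE 0.74), the vitelline membrane gene psd with 9.88 (1.38, SE 0.69), dec, which encodes an eggshell matrix protein, with 12.06 (1.09, SE 0.59), and ndl, a protease gene of the egg's dorsoventral pathway, with 9.06 (0.32, SE 0.57). The arrays at 0g* and outside at 14C were higher than most of these for Vm32E, with 11.58, 11.67 and 11.73 at 0g* and 11.22 and 11.13 outside. For Vm32E, 2g* replicate 3 was therefore the 2g* array nearest to the other females at 14C. Without 2g* replicate 3 the Vm34Ca difference was 0.61, and the list's median of 1.19 was 0.60, against 0.69 without 1g* replicate 1.

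Femcoat and the eggshell genes yellow-g and yellow-g2 followed the chorion-low arrays instead. Femcoat had 8.47, 9.45 and 9.34 at 2g*, against 4.41, 9.00 and 4.88 at 1g* (difference 2.99, SE 1.66). The yellow-g levels were 8.96, 9.72 and 7.35 at 2g*, against 6.10, 10.23 and 4.43 at 1g* (1.76, SE 1.46), and yellow-g2 differed by 1.69 (SE 1.41). Both yellow genes were highest on 1g* replicate 2.

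Eggshell genes with a part in embryo patterning had smaller differences. The gene fs(1)N had levels of 9.20, 9.43 and 9.47 at 2g*, against 7.86, 9.10 and 8.63 at 1g* (difference 0.84, SE 0.26), without overlap. The difference of clos was 0.25 (SE 0.15), and the peroxidase gene Pxt differed by 0.78 (SE 0.26). By contrast tsl, which marks the ends of the egg, had 8.41, 8.44 and 8.24 at 2g*, against 9.44, 8.85 and 9.12 at 1g* (-0.77, SE 0.24), lower at 2g* without overlap. Pxd stood at background in both groups. Of the 16 genes, 6 had higher and 1 lower values with an unadjusted p under 0.05.

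Yolk transcripts differed little. Yp1 had levels of 14.35, 14.27 and 14.32 at 2g*, against 14.15, 14.26 and 14.26 at 1g* (difference 0.09, SE 0.10), Yp2 had 14.07, 14.14 and 14.19 at 2g*, against 13.85, 14.14 and 14.07 at 1g* (0.11, SE 0.11), and Yp3 had 14.17, 14.21 and 14.27 at 2g*, against 13.91, 13.97 and 14.11 at 1g* (0.22, SE 0.10). Yp1 and Yp3 did not overlap between the groups. The oocyte's yolk receptor gene yl had 10.07, 10.01 and 10.79 at 2g*, against 9.19, 9.87 and 9.88 at 1g* (0.64, SE 0.23). Apoltp, a lipid transfer particle gene, had 9.59, 9.67 and 9.44 at 2g*, against 10.22, 9.53 and 10.64 at 1g* (-0.56, SE 0.25), with overlap. The list of 7 yolk genes had a median difference of 0.11, with 1 gene higher and 1 lower at an unadjusted p under 0.05.

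Transcripts of dividing and germline cells had higher values at 2g*, none past the test. The 18 replication and cell cycle genes measured, of 28 listed, all had positive differences, and the list's median was 0.89. Of these, 15 (83.3%, beside 9.24% of all genes) had an unadjusted p under 0.05 and 7 (38.9%, beside 6.71%) were without overlap. CycB3, a mitotic cyclin gene, had levels of 10.40, 10.51 and 10.59 at 2g*, against 8.21, 10.16 and 9.22 at 1g* (difference 1.30, SE 0.39, adjusted p = 0.32). The replication licensing gene Cdc6 differed by 1.16 (SE 0.36), the polymerase clamp gene PCNA by 0.89 (SE 0.29), and fzy, an activator of the anaphase-promoting complex, by 1.30 (SE 0.43). The other probe sets of fzy, both dimmer, differed by -0.02 (SE 0.42) and -0.01 (SE 0.19). On each of these 4 genes, read from the brightest probe set, the order at 1g* was replicate 2, then 3, then 1, with every 1g* array below every 2g* array. Without 1g* replicate 1 the median of the list was 0.43, and against 1g* replicate 2 alone it was 0.11. That last array was picked after its chorion level was seen. Values against it alone are thus descriptions and no test, here and for the lists below.

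Germline genes had the same order of the 1g* arrays in the next 2 genes. The differentiation factor gene bam had levels of 8.75, 8.90 and 8.61 at 2g*, against 6.96, 7.92 and 7.29 at 1g* (difference 1.36, SE 0.30). The posterior determinant nanos had 10.75, 11.06 and 11.23 at 2g*, against 8.08, 10.62 and 9.53 at 1g* (1.60, SE 0.47), without overlap in either gene. The genes plu and png, whose products form a kinase complex of the egg, differed by 1.13 (SE 0.35) and 0.70 (SE 0.22). Of 28 germline genes, 13 (46.4%, beside 9.24% of all genes) had higher values with an unadjusted p under 0.05. The 1 lower gene at that p was grk, the oocyte's ligand for the follicle cells, at -0.56 (SE 0.22). The list's median was 0.46, 0.25 without 1g* replicate 1 and 0.06 against 1g* replicate 2 alone.

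The list of ovulation and sperm storage genes held the 1 gene that passed the test when an array was left out. Send2, an endopeptidase gene of the sperm storage organs, had levels of 5.93, 4.43 and 4.87 at 2g*, against 8.43, 6.24 and 8.21 at 1g* (difference -2.55, SE 0.49, adjusted p = 0.32). Each 1g* array was above every 2g* array, and above the arrays at 0g*, which had 5.22, 4.31 and 4.64, and outside at 14C, which had 4.38 and 4.45. Without 1g* replicate 2 it was the 1 probe set that passed, at -3.24 (adjusted p = 0.012, limma). Of 10 genes on the ovulation and spermatheca list, 3 (30%, beside 8.51% of all genes) had lower values with an unadjusted p under 0.05. These were Send2, the metalloprotease inhibitor gene Timp (-0.72, SE 0.26) and the sex peptide receptor gene SPR (-0.77, SE 0.32). All 3 were without overlap (30%, beside 10.8%), and 0 genes had higher values at that p.

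The medians of both male lists were below 0 with all arrays and near 0 without 1g* replicate 1. Acp26Aa, which encodes the seminal protein ovulin, had levels of 3.49, 3.62 and 3.50 at 2g*, against 8.15, 3.72 and 3.48 at 1g*. The sperm gene Mst84Dd had 3.41, 3.55 and 3.42 at 2g*, against 5.83, 3.58 and 4.07 at 1g*. Both were at background at 2g*, and their 1g* means, each raised by replicate 1, were at least 0.79 and 0.16 higher on the log2 scale. The accessory gland list had a median difference of -1.37 and the testis list of -0.34, and without 1g* replicate 1 these medians were 0.05 and 0.01. The values of mia, a spermatocyte gene, were 5.52, 5.09 and 5.66 at 2g*, against 5.83, 6.10 and 6.15 at 1g* (-0.60, SE 0.18), so it did not follow that array.

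Transcripts of the eye that were measured had lower values at 2g*, none past the test. The 15 photoreceptor genes measured, of 24 listed, had array medians of 7.43, 7.50 and 7.59 at 2g*, against 8.70, 8.11 and 8.31 at 1g*. These medians did not overlap. The rhodopsin genes ninaE, Rh3, Rh4, Rh5 and Rh6 were not among the 15. Of the 15 genes 13 (86.7%, beside 8.51% of all genes) had lower values with an unadjusted p under 0.05, and 0 had higher values. Lower without overlap were 12 (80%, beside 10.8%). The kinase gene inaC had levels of 7.57, 7.40 and 7.59 at 2g*, against 8.71, 8.21 and 8.41 at 1g* (difference -0.92, SE 0.22), and the carotenoid receptor gene ninaD, needed to make the visual chromophore, had 7.43, 7.50 and 7.21 at 2g*, against 9.86, 8.15 and 9.20 at 1g* (-1.69, SE 0.45). The rhodopsin phosphatase gene rdgC (-0.98, SE 0.26) and the scaffold gene inaD (-0.56, SE 0.15) were also without overlap. In inaC, ninaD and rdgC 1g* replicate 2 was the 1g* array nearest to 2g*, yet above every 2g* array.

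The eye list kept its direction against each 1g* array. Its median was -0.58, -0.43 without 1g* replicate 1 and -0.34 against 1g* replicate 2 alone, and the 2g* mean was below 1g* replicates 1, 2 and 3 in 14, 15 and 14 of the 15 genes. Galphaq, the visual G protein gene, was measured by 3 probe sets that disagreed: the brightest differed by -0.01 (SE 0.17) and the others by -0.91 (SE 0.35) and -1.01 (SE 0.18). Outside at 14C the photoreceptor medians were 7.54 and 7.61 and at 0g* 7.69, 7.50 and 7.14, so the 1g* arrays were the high ones.

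Neuronal and muscle genes also had lower values at 2g*. Of the 28 neuronal genes measured, of 33 listed, 14 (50%, beside 8.51% of all genes) had an unadjusted p under 0.05, all lower. Lower without overlap were 15 (53.6%, beside 10.8%). The list's median was -0.48, and -0.26 against 1g* replicate 2 alone. The acetylcholine receptor gene nAChRalpha5 had levels of 5.78, 5.92 and 5.85 at 2g*, against 6.46, 6.39 and 6.37 at 1g* (difference -0.56, SE 0.13). The transmitter enzyme genes ChAT (-0.80, SE 0.22) and Gad1 (-0.78, SE 0.26) and futsch, which encodes a microtubule protein of axons (-0.87, SE 0.24), were also without overlap.

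The 24 muscle genes measured, of 30 listed, all had negative differences. Of these, 5 (20.8%, beside 8.51% of all genes) had an unadjusted p under 0.05 and 8 (33.3%, beside 10.8%) were without overlap. The median was -0.44, -0.26 without 1g* replicate 1 and -0.11 against 1g* replicate 2 alone. Msp300, a nuclear anchor of muscle with 6 probe sets of which 4 had negative differences, had levels of 8.15, 8.27 and 8.16 at 2g*, against 9.13, 8.42 and 8.89 at 1g* (difference -0.62, SE 0.22). The calcium release channel gene RyR (-0.62, SE 0.25), the thin filament gene tmod (-0.44, SE 0.16, with 0.00 in a dimmer probe set) and the myofibril gene Mf (-0.33, SE 0.14) had the next smallest p values, and of these Mf was without overlap.

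**Figure D3:**
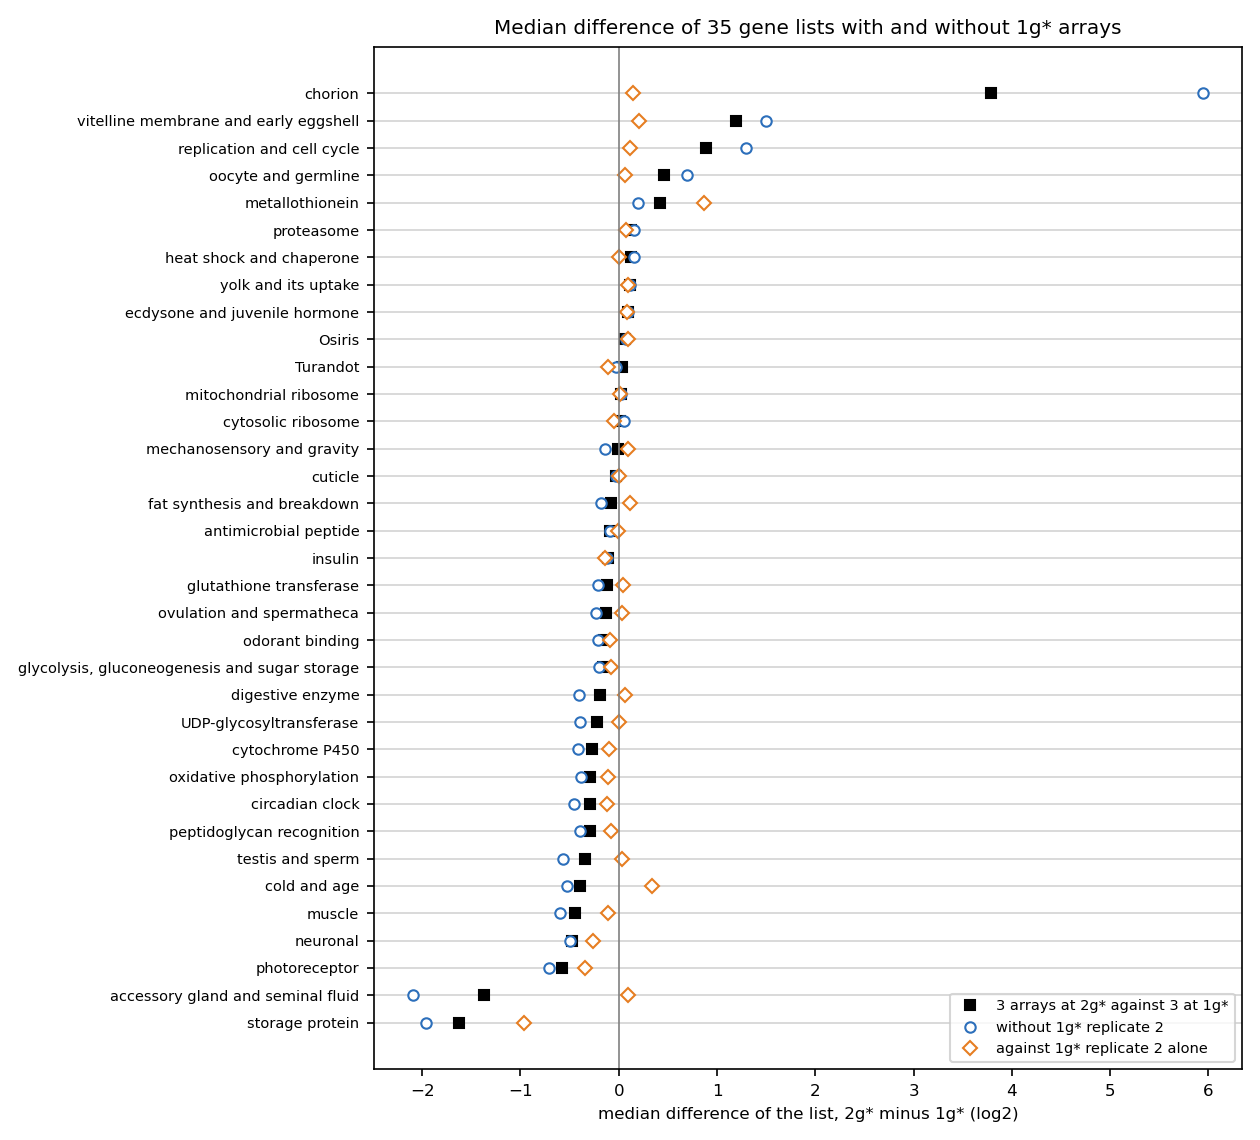
Median difference of each of 35 gene lists between 2g* and 1g* (horizontal axis, log2) with all arrays (squares), without 1g* replicate 2 (open circles) and against 1g* replicate 2 alone (diamonds). Against that array alone the photoreceptor (-0.34), neuronal (-0.26) and storage protein (-0.96) medians stayed below 0. The chorion median was 0.15 there, in place of 3.79 with all arrays, which followed from picking that array as chorion-high.

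Among metabolic genes, 65 of 71 oxidative phosphorylation genes had negative differences. Of the 71, 14 (19.7%, beside 8.51% of all genes) were lower with an unadjusted p under 0.05 and 32 (45.1%, beside 10.8%) without overlap. The differences were small. SdhD, a subunit gene of succinate dehydrogenase, had levels of 10.96, 10.83 and 10.78 at 2g*, against 11.66, 11.24 and 11.41 at 1g* (-0.58, SE 0.19), and the cytochrome c oxidase gene COX5B differed by -0.41 (SE 0.15). The list's median was -0.29 and -0.17 without 1g* replicate 1. Its members COX6AL and ATPsynCF6L are also on the testis and sperm list. On 1g* replicate 1, the array with male transcripts, 70 of the 71 genes lay above background. There were 66, 62 and 66 at 2g* and 65 and 66 on the other 1g* arrays. The part of male RNA in these counts was not tested. The cytosolic ribosome list had a median of 0.01, with 23 of 41 genes positive, and the proteasome list of 0.13.

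Of 81 cytochrome P450 genes, which encode oxidases of hormones and foreign compounds, 15 (18.5%, beside 8.51% of all genes) had lower and 1 higher values with an unadjusted p under 0.05, and 23 (28.4%, beside 10.8%) were lower without overlap. Cyp4d21 had levels of 7.38, 7.61 and 7.72 at 2g*, against 9.28, 8.37 and 9.00 at 1g* (difference -1.31, SE 0.32). Cyp4ac2 differed by -0.82 (SE 0.23), Cyp313a3 by -0.75 (SE 0.23) and Cyp6a13 by -0.59 (SE 0.19), all without overlap. The list's median was -0.27, -0.20 without 1g* replicate 1, -0.41 without 1g* replicate 2 and -0.10 against 1g* replicate 2 alone. Of 35 UDP-glycosyltransferase genes 3 (8.57%, beside 8.51% of all genes) had lower values, such as Ugt302E1 (-1.53, SE 0.46), and 1 higher, Ugt35D1, which was at background at 1g*.

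Of the 3 storage protein genes measured, of 6 listed, Fbp1 and Fbp2 had lower values at 2g* and Lsp2 hardly differed. Fbp2 had levels of 5.68, 5.59 and 5.10 at 2g*, against 8.54, 6.79 and 7.58 at 1g* (difference -2.18, SE 0.45), and Fbp1, the receptor gene for storage protein uptake, had 5.45, 5.43 and 5.12 at 2g*, against 7.64, 6.29 and 6.94 at 1g* (-1.62, SE 0.35). Neither gene overlapped. At 0g* Fbp2 had 7.32, 6.09 and 5.39 and Fbp1 had 6.48, 5.66 and 5.17, so that 0g* replicate 1 lay within the range of the 1g* arrays. Outside at 14C there were 4.87 and 5.16 for Fbp2 and 5.03 and 5.83 for Fbp1. The third storage gene, Lsp2, had a difference of -0.04 (SE 0.51). Of the lipid droplet genes, Lsd-1 had lower values at 2g* (-0.95, SE 0.43) and Lsd-2 higher values (0.48, SE 0.18).

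The stress genes measured showed no common direction. TotC, a secreted stress protein of the Turandot family, had levels of 8.65, 9.26 and 7.45 at 2g*, against 10.29, 11.27 and 10.75 at 1g* (difference -2.32, SE 0.58). Every 1g* array was above every 2g* array, and above the arrays at 0g*, with 7.33, 8.60 and 6.56, and outside at 14C, with 6.64 and 5.71. For TotC 1g* replicate 2 was the highest 1g* array, while for inaC and ninaD it was the lowest. TotB stood at background in 2g* flies. The 5 Turandot genes measured, of 8 listed, had a median of 0.03. With dim probe sets left out it was -1.14, a value that rests on few genes with TotC among them.

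The metallothionein gene MtnB had levels of 8.84, 9.17 and 9.43 at 2g*, against 7.66, 7.39 and 8.79 at 1g* (difference 1.20, SE 0.41), without overlap, and MtnD (0.50, SE 0.41) and MtnC (0.35, SE 0.47) overlapped. The small heat shock genes Hsp26 (1.26, SE 0.47) and Hsp27 (1.41, SE 0.51), which the ovary also makes, had higher values, while Hsc70-1 (-0.76, SE 0.27) and the co-chaperone gene stv (-0.60, SE 0.22) had lower ones. Without 1g* replicate 1, Hsp26 was at 0.75 and Hsp27 at 0.90. Of 24 heat shock and chaperone genes listed, 12 were measured, and the Hsp70 genes and Hsp83 were not among them.

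**Figure D4:**
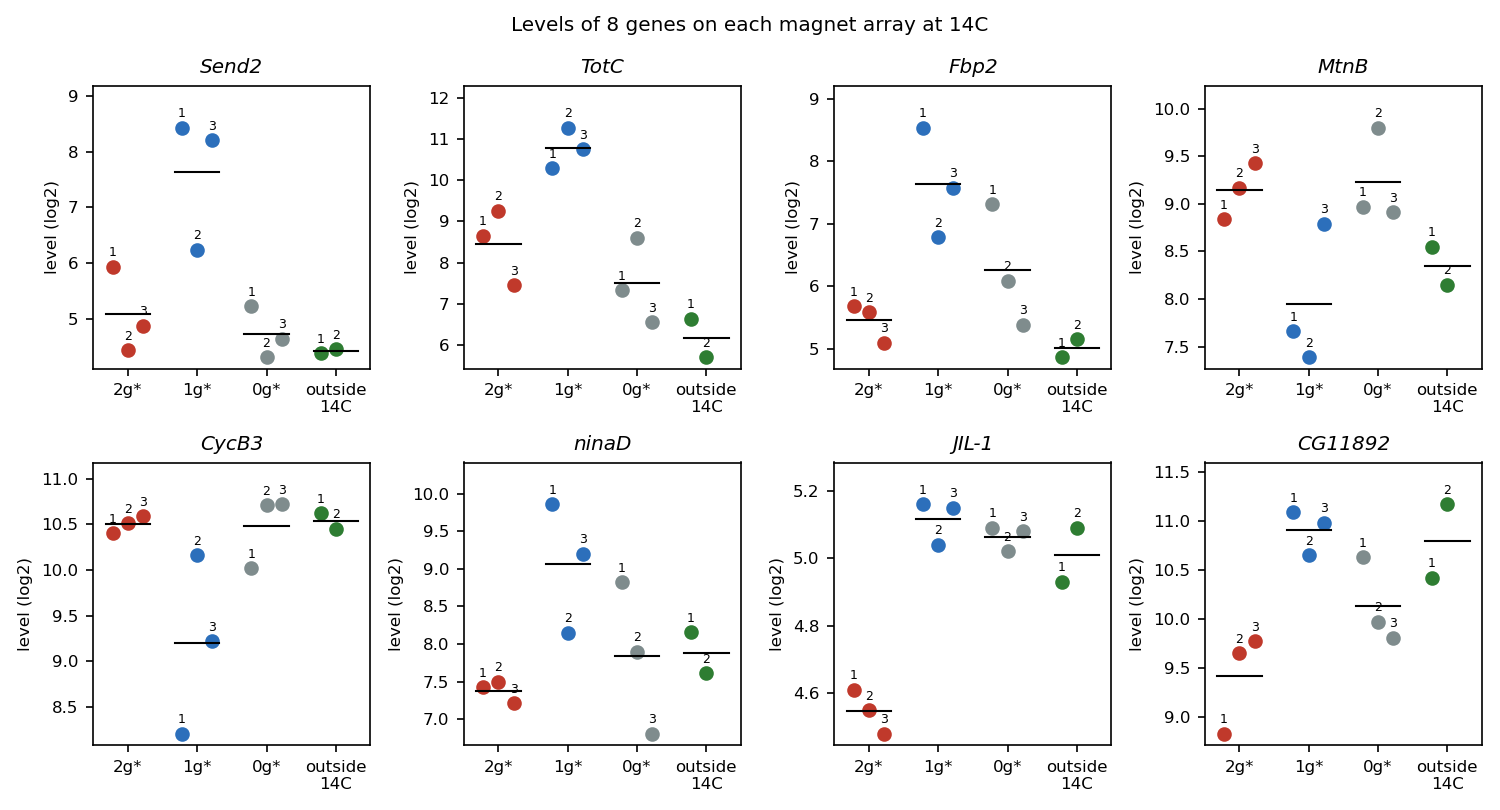
Log2 levels (vertical axis) of 8 genes on each magnet array at 14C, with 1 point per array, its replicate number above it and a line at the group mean. Send2 and TotC were highest on the 3 arrays at 1g*, while JIL-1 and CG11892 were lowest on the 3 arrays at 2g*.

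The 24 genes with the smallest p values and no overlap, 12 in each direction, had an adjusted p of 0.32 each (limma). CG4570 had the largest difference of the higher ones, with levels of 8.97, 9.08 and 8.18 at 2g*, against 4.73, 7.73 and 6.29 at 1g* (2.49, SE 0.63). CG13138 differed by 1.13 (SE 0.24), THG by 1.00 (SE 0.22), CG15435 by 0.96 (SE 0.25), CG42382 by 0.80 (SE 0.17), the chromatin remodelling gene Bap60 by 0.79 (SE 0.20) and the farnesyltransferase gene Fntb by 0.51 (SE 0.12). CG31195 (0.73), the chitinase gene Cht11 (0.68), dikar (0.67), CG6610 (0.66) and bam completed them.

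Among the lower ones, besides Send2, Fbp1 and Fbp2, were CG34040 (-1.76, SE 0.39), CG11892 (-1.49, SE 0.34) and CG6867 (-1.26, SE 0.23). The set also held the acetylcholine receptor gene nAChRbeta2 (-0.59, SE 0.12), the sodium leak channel partner unc79 (-0.74, SE 0.17), the sensory channel gene wtrw (-0.80, SE 0.18), the eye calcium buffer gene Cpn (-0.76, SE 0.17) and CG4213 (-0.73, SE 0.16). Of these nAChRbeta2 was dim, with 4.46, 4.72 and 4.57 at 2g*, near the background of 4.33.

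In 17 of these 24 genes the 3 arrays at 1g* stood apart from the other females at 14C, and in 2 the 3 arrays at 2g* did. The genes were picked because the same 2g* and 1g* arrays did not overlap, so both counts only describe them. Of all 18769 probe sets, the 1g* arrays stood above the others in 3.48% and below in 1.77%. For the 2g* arrays these shares were 0.325% and 0.272%. The histone kinase gene JIL-1 had levels of 4.61, 4.55 and 4.48 at 2g*, against 5.16, 5.04 and 5.15 at 1g* (difference -0.57, SE 0.13), with 5.09, 5.02 and 5.08 at 0g* and 4.93 and 5.09 outside at 14C. CG11892 had 8.83, 9.65 and 9.77 at 2g*, against 11.09, 10.65 and 10.98 at 1g*, with 10.63, 9.97 and 9.81 at 0g* and 10.42 and 11.17 outside. In both, each 2g* array lay below all other females at 14C, though JIL-1 was dim, near the background of 4.33 at 2g*.

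Of the defence and barrier genes, the antimicrobial peptide, Osiris and cuticle lists had few members at that p. Of 12 antimicrobial peptide genes and 24 Osiris genes of cuticle formation, 0 had an unadjusted p under 0.05 in either direction (limma, 0 adjusted), with medians of -0.09 and 0.06. Of 102 cuticle genes 2 had higher and 4 lower values at that p, with a median of -0.03. Of 7 peptidoglycan recognition genes, which sense bacteria, 2 had lower values, PGRP-SC2 (-0.81, SE 0.32) and PGRP-LA (-0.49, SE 0.18), both without overlap. These are 28.6% of the list, beside 8.51% of all genes at that p and 10.8% without overlap. The list's median was -0.29, and -0.08 against 1g* replicate 2 alone.

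Of 47 odorant binding genes 5 (10.6%) had lower and 1 higher values, near the 8.51% of all genes that were lower, and 13 (27.7%) were lower without overlap, beside 10.8% of all genes. One of the 13 was Obp56e, with levels of 7.36, 7.45 and 7.26 at 2g*, against 8.55, 7.89 and 8.05 at 1g* (difference -0.81, SE 0.28). Of 40 digestive enzyme genes 33 had negative differences but 0 an unadjusted p under 0.05 (limma, 0 adjusted), with a median of -0.19. Of 34 glutathione transferase genes, which detoxify, 2 had higher and 2 lower values (5.88% each, below the shares of all genes), with a median of -0.12. The lists of hormone genes, 16 of ecdysone and juvenile hormone and 8 of insulin, had medians of 0.09 and -0.11.

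Gravity sensing genes had few differences, and clock genes had differences in both directions. Of 10 mechanosensory and gravity genes 1 had an unadjusted p under 0.05, nompA, which links sensory cilia to the cuticle, at -0.49 (SE 0.22), and the list's median was -0.01. A second, dimmer probe set of nompA differed by 0.10 (SE 0.15). Of 10 clock genes 4 had an unadjusted p under 0.05, 20% in each direction beside 9.24% higher and 8.51% lower of all genes: per (-0.43, SE 0.16) and tim (-0.53, SE 0.24), which encode partners of the feedback loop, had lower values and cyc (0.55, SE 0.20) and the kinase gene dco (0.42, SE 0.16) higher ones. The clock list's median was -0.29, and -0.12 against 1g* replicate 2 alone. The insulin-like gene Ilp8, which mature follicles make, had levels of 7.30, 7.45 and 6.53 at 2g*, against 4.76, 6.75 and 6.06 at 1g* (1.24, SE 0.54), and was at 0.69 without 1g* replicate 1. Ilp2, which brain cells make, differed by -0.30 (SE 0.13).

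The question whether 2g in the field acts like 2g in a centrifuge was put to a joint test of the 2 differences, 2g* minus 1g* less centrifuge 2g minus 1g-rot, with temperature, field and run differing between the facilities. It called 33 of 18769 probe sets (0.176%; limma, adjusted p under 0.05), with 24 higher and 9 lower. The split was 28 and 23 after repeated quantile normalization and 25 and 16 after centring. The count was 18 when 2g* replicate 1 was left out, 22 when 1g* replicate 3 was, 20 when 1g* replicate 1 was and 1034 when 1g* replicate 2 was. With both centrifuge groups at 1g taken as reference it was 7. Of the 33, 25 were also called between centrifuge 2g and 1g-rot in the joint fit and 0 between 2g* and 1g*.

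In most joint calls the larger difference was that of the centrifuge. The Tweedle gene TwdlN, of a family of cuticle proteins, had levels of 4.71, 4.67 and 4.94 at 2g*, against 4.47, 4.44 and 4.77 at 1g* (difference 0.21, SE 0.13). In the centrifuge it had 4.77, 4.67, 4.45 and 4.83 at 2g, against 8.19 and 7.98 at 1g-rot, and the joint difference was 3.62 (SE 0.21, adjusted p = 4.1e-09). The larval cuticle gene Lcp65Ag3 (4.49, SE 0.47), TwdlB (2.98, SE 0.22), CG17290 (2.38, SE 0.14) and TwdlM (2.02, SE 0.19) were also highest at 1g-rot. CG17290 and TwdlB were at background at 2g*, 1g* and centrifuge 2g, and Lcp65Ag3 at 2g* and centrifuge 2g, so their joint differences are fitted values and no measured folds. Their 1g-rot levels were at least 3.22-fold (CG17290), 4.88-fold (TwdlB) and 21.1-fold (Lcp65Ag3) above the background at centrifuge 2g.

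The lower joint calls held genes with lower values at 2g* than at 1g*. CG4213 had levels of 7.57, 7.27 and 7.42 at 2g*, against 8.36, 7.99 and 8.10 at 1g*, and in the centrifuge 7.95, 7.91, 8.22 and 7.93 at 2g, against 7.54 and 7.17 at 1g-rot. Its joint difference was -1.38 (SE 0.22, adjusted p = 0.0072), and it was also called with both groups at 1g as reference (-1.14). The clock gene per had 7.05, 6.95 and 6.86 at 2g*, against 7.54, 7.14 and 7.48 at 1g*, and in the centrifuge 6.66, 6.69, 6.74 and 6.53 at 2g, against 6.03 and 5.97 at 1g-rot (joint -1.09, SE 0.21, adjusted p = 0.04). The receptor gene nAChRbeta2 (-0.84, SE 0.16), dim at 2g*, and CG32091 (-1.08, SE 0.21) were called too. The genes per, nAChRbeta2 and CG32091 lost the call with both groups at 1g as reference.

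For the chorion list the median was 3.79 between 2g* and 1g* and -0.39 between centrifuge 2g and 1g-rot, and for the photoreceptor list it was -0.58 and 0.23. No chorion or photoreceptor gene passed the joint test, so a difference between the facilities was not shown for them.

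**Figure D5:**
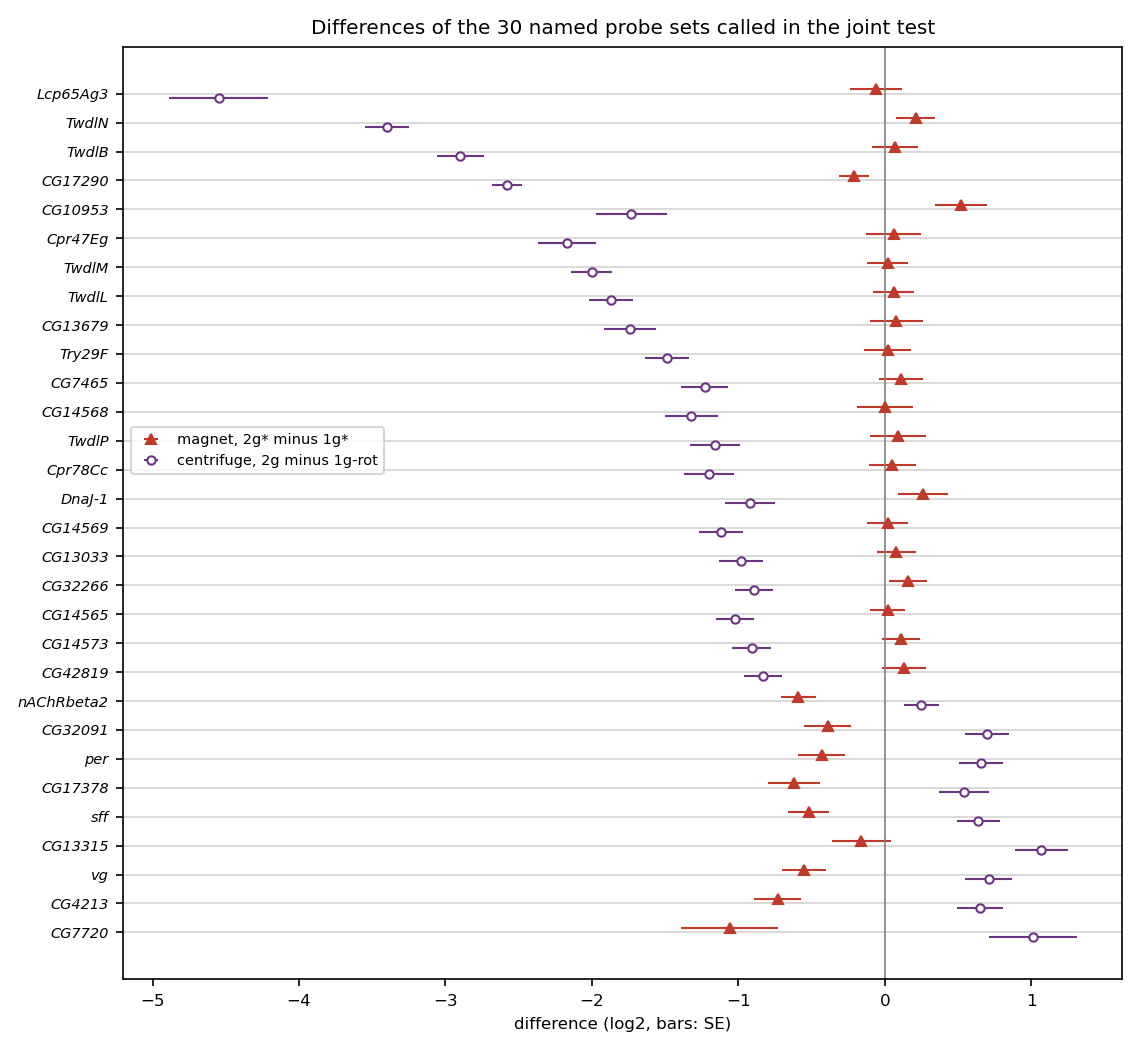
Differences (horizontal axis, log2, with SE) of the 30 called probe sets with 1 gene symbol, in the magnet (triangles, 2g* minus 1g*) and in the centrifuge (open circles, 2g minus 1g-rot). TwdlN, with a joint difference of 3.62, had 0.21 in the magnet and -3.40 in the centrifuge, and CG4213, with -1.38, had -0.73 in the magnet and 0.65 in the centrifuge.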

How the data were processed

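RNA of adult flies was hybridised to Affymetrix Drosophila Genome 2.0 arrays, 1 array a sample. Per the submitters' processing notes the authors used RMA and limma (versions and the arrays normalized together: not given in the sources used here), and the deposited table holds log2 expression values with 2 decimals. RMA brings arrays to a shared distribution, so a change of most transcripts at once would not show. Scan batches were not analysed here. Of 18952 probe sets on 50 arrays, 183 controls were left out. Symbols came from the array annotation (13647 probe sets with 1 symbol, 402 with several, 4720 with none), of which 13544 matched current gene identifiers. A gene was read from its brightest probe set, which gave 11982 genes, and 2046 probe sets carry a suffix for shared hybridization. Array medians were 5.37 to 5.44 at 2g* and 5.39 to 5.50 at 1g*, correlations among the 6 arrays 0.949 to 0.9926, and at most 1.62% of values were equal, so no array was a copy. Background was taken from 50 control probe sets of plant genes: a group mean below their 95th percentile counted as at background.

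Group means were fitted with limma 3.58.1 (R 4.3.3) over the 14 magnet arrays, and over 22 arrays with the centrifuge for the joint test, with Benjamini-Hochberg adjustment over 18769 probe sets and a threshold of 0.05. One array titled outside at 24C, replicate 1, carries 14C among its characteristics and was grouped by its title. It adds to the spread and gives the chorion median of 12.54 printed for 24C. The 35 gene lists are described by counts and medians. Named genes are the 12 of smallest p per direction without overlap, all chorion, vitelline membrane and Yp genes, the 4 of smallest p of each other list and the 4 of smallest joint p per direction; grk, Galphaq, the joint calls beyond those and 2 probe sets without a symbol were named after their values were seen. Members and lists were chosen with earlier results of these data known. The procedure was tested on simulated data. Alternatives were repeated normalization, centring, a dim filter, other samples in the fit, a replicate block, other prior variances and leaving out arrays; leaving out 1g* replicates 1 and 3 together was added after seeing the data.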

Additional observations from a re-analysis of the deposited data

Results flagged for a closer look

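The joint test of the difference at the magnet against that in the centrifuge called 27 genes by their brightest probe set, 20 higher and 7 lower, given here as joint log2 differences. Higher were the Tweedle cuticle genes TwdlN (3.62), TwdlB (2.98), TwdlM (2.02), TwdlL (1.93) and TwdlP (1.25), the cuticle genes Lcp65Ag3 (4.49), Cpr47Eg (2.23) and Cpr78Cc (1.25), the protease gene Try29F (1.51), the co-chaperone gene DnaJ-1 (1.18), and CG17290 (2.38), CG13679 (1.82), CG7465 (1.34), CG14568 (1.32), CG14569 (1.14), CG13033 (1.07), CG32266 (1.05), CG14565 (1.04), CG14573 (1.02) and CG42819 (0.96). Lower were CG7720 (-2.06), CG4213 (-1.38), CG13315 (-1.24), CG17378 (-1.16), per (-1.09), CG32091 (-1.08) and nAChRbeta2 (-0.84). TwdlN had a difference of 0.21 in the magnet and of -3.40 in the centrifuge, 2g minus 1g-rot, and CG4213 had -0.73 in the magnet and 0.65 in the centrifuge. Of the 27, CG17290, TwdlB, Try29F and CG14565 were at background at 2g*, 1g* and centrifuge 2g. Lcp65Ag3 was at background at 2g* and centrifuge 2g, and Cpr78Cc at 2g* and 1g*. The joint values of these 6 genes are no measured folds. The part of temperature, field and run in these differences was not tested, since they differ between the facilities.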

How the results depend on the processing

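The count of 0 probe sets between 2g* and 1g* was 0 to 1 with 1 array left out, where the 1 was Send2 without 1g* replicate 2, and 0 under quantile normalization, centring, the dim filter, other samples in the fit and other prior variances. Arrays at 2g* and 1g* with the same replicate number carry the same letter in their names. Correlations of deviations by replicate number were weak (0.15, 0.29 and 0.01). With so few arrays a group, they cannot tell whether the samples were paired. With the replicate block, by the letter in the array names, the count was 0 in the magnet fit (2250 probe sets at an unadjusted p under 0.05) and 1 with only the 2g* and 1g* arrays, a probe set without a symbol that is described further on (adjusted p = 0.037). The joint count of 33 was 18 to 1034 with 1 array left out, 7 with both centrifuge groups at 1g as reference and 51 after quantile normalization; of the 33, these settings called 7 and 32 again, and centring 31.

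Against 1g* replicate 2 alone the sign turned for Cp36 (-0.52), Cp38 (-0.37), Cp7Fc (-0.71), clos (-0.07), yellow-g (-1.55), yellow-g2 (-1.73), ndl (-0.05), Pxd (0.05), Lsp2 (0.22), Yp2 (-0.01) and TwdlM (-0.13). With 1 array left out ndl was -0.40 to 0.72, Pxd -0.09 to 0.05, Lsp2 -0.21 to 0.11, TwdlB -0.05 to 0.14 and TwdlM -0.07 to 0.09. Centring gave Pxd 0.02 and Lsp2 0.01, and quantile normalization Lsp2 0.04 and Yp1 0.00. The cause of these changes was not tested. Of 2026 other settings of single genes 1999 kept direction and side of the threshold. No gene passed in the main fit, so keeping the side says little. For the genes called in the joint test, 78 of 243 other settings lost the call and 165 kept it. With 3 arrays a group, probe sets near background (5270 at 2g*, 4780 at 1g*) limit what can be seen.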

Other observations

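A pair of probe sets without a gene symbol, picked after their values were seen, had differences close in size to that of TotC (-2.32). The first had levels of 9.92, 10.18 and 8.94 at 2g*, against 11.70, 11.88 and 11.77 at 1g* (difference -2.10, SE 0.45, adjusted p = 0.32, limma), with 8.41, 8.95 and 7.61 at 0g* and 6.37 and 7.18 outside at 14C. The other, the 1 call of the replicate block with only the 6 arrays, had 7.08, 7.62 and 6.42 at 2g*, against 9.25, 9.80 and 8.96 at 1g* (-2.30, SE 0.52). In both, every 1g* array was above every 2g* array, and 1g* replicate 2 was the highest.

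Besides JIL-1 and CG11892, the named genes held 2 more for which each 2g* array lay below all 8 other females at 14C. The citrate lyase gene ATPCL had 4.87, 4.68 and 4.64 at 2g*, against 5.14, 4.94 and 5.11 at 1g* (difference -0.33, SE 0.12), with 5.10, 4.89 and 4.95 at 0g* and 5.47 and 5.25 outside. The odorant binding gene Obp19b had 5.51, 5.98 and 6.10 at 2g*, against 6.70, 6.34 and 6.25 at 1g* (-0.57, SE 0.19), with 6.83, 6.50 and 6.18 at 0g* and 6.15 and 6.26 outside. Neither difference passed the test, and ATPCL was dim, near the background of 4.33 at 2g*. Of all 18769 probe sets, 51 (0.272%) had all 3 arrays at 2g* below the other 8, the smallest such share of the 3 positions.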
